A study of Mus musculus with 6 samples.

Results

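The genes described here are the 10 MHC class II presentation genes measured among the 30409 genes of the RNA-seq part of a study of Twist1, a basic helix-loop-helix transcription factor, in blood stem cells. They were taken by name as a list (H2-Aa, H2-Ab1, H2-Eb1, Cd74, H2-DMa, H2-DMb1, H2-DMb2, H2-Oa, H2-Ob and Ciita), and all 10 were found by symbol through their Ensembl identifiers. RNA came from bone marrow cells of C57BL/6 mice sorted as Lineage-Sca1+cKit+CD34-Flk2-, the gate for long-term haematopoietic stem cells (LT-HSCs). There were 4 groups with 1 library each: Twist1 cKO (conditional knockout) mice 12 days after irradiation, wild-type mice 12 days after irradiation, Twist1 cKO mice at steady state and wild-type mice at steady state. The Cre driver, the radiation dose and the age of the mice are not given in the labels, and ATAC-seq of irradiated cells was not analysed here. Since each group is a single library, no difference can be set against replicate spread, and no test was run.

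MHC class II molecules show peptides from endosomes to CD4 T cells and are made mainly by B cells, macrophages and dendritic cells. An alpha and a beta chain assemble in the endoplasmic reticulum with the invariant chain, which blocks the groove and guides the complex to endosomes, where proteases trim the invariant chain to a short fragment. The DM heterodimer then exchanges that fragment for peptide, and the DO heterodimer holds DM back. The coactivator CIITA switches these genes on through a shared promoter element.

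The values are FPKM, reads scaled by the authors for gene length and library size, so levels can be compared between genes. Reads recovered from the FPKM added up to 20349832 in the irradiated cKO library, 24743747 in the irradiated wild-type library, 22127571 in the steady-state cKO library and 25100818 in the steady-state wild-type library. In the irradiated wild-type library this sum was above the library size implied by the FPKM (22146433), and in each of the others it was below it. Shares of recovered reads and folds of FPKM therefore rest on different totals. Differences are on the log2 scale of FPKM + 1, and folds are ratios of FPKM with exact 95% intervals from the recovered reads, which cover counting error only. Twist1 had 0 reads in the irradiated cKO library against 5 in the irradiated wild-type library, and 2 reads in the steady-state cKO library against 6 in the steady-state wild-type library, so the order fitted the labels on very few reads. The irradiated libraries nearly lacked Procr, an LT-HSC marker that encodes the endothelial protein C receptor, which had 1.22 (cKO) and 0.333 FPKM (wild type) after irradiation against 66.1 (cKO) and 51.3 FPKM (wild type) at steady state. The antigens of the gate were also lower: Ly6a (Sca1) had 256 (cKO) and 89.1 FPKM (wild type) after irradiation against 362 (cKO) and 534 FPKM (wild type) at steady state, and Kit had 4.98 (cKO) and 8.52 FPKM (wild type) after irradiation against 27.6 (cKO) and 20.1 FPKM (wild type) at steady state. Of 7 LT-HSC markers compared, 6 were 2-fold lower after irradiation in each genotype. Irradiation and sex-linked transcripts cannot be told apart here, since the Y-linked Ddx3y had 0.0164 (cKO) and 0.0521 FPKM (wild type) in the irradiated libraries against 12.4 (cKO) and 10.2 FPKM (wild type) at steady state. The X-linked Xist went the other way, with 0.573 (cKO) and 1.003 FPKM (wild type) in the irradiated libraries against 0.0155 (cKO) and 0.0171 FPKM (wild type) at steady state. In bulk RNA, fewer cells of a type and less RNA per cell cannot be told apart either.

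RefSeq promoter windows (GRCm38.p6, 250 bases before to 50 after a gene start) were read for 7 of the 10 genes. Cd74 was left out of this reading, and no window was used for H2-Ab1 or Ciita. Whether the promoters of Cd74, H2-Ab1 and Ciita hold the element below is therefore not reported. In 6 of these 7 (H2-DMa was the exception, with 2 windows) a Y box, TGATTGG, which holds the inverted CCAAT box bound by NF-Y, lay downstream of letters of the X box family, CNNNNAAC, bound by RFX proteins, with 23 to 27 bases allowed between them. These letters were chosen after reading the windows. Searched on both strands of 32851 promoter windows, TGATTGG was in 7.82%, CNNNNAAC in 81.6% and the pair at that spacing in 0.149%. The stretch around the pair is shown for these 6 genes, 5′ to 3′ on the gene's strand, because it is the element the 6 promoters share; capitals mark the X letters (first) and the Y box (second).
H2-Aa (chr17:34287863-34287911, minus strand): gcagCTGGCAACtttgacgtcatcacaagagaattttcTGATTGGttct
H2-Eb1 (chr17:34305769-34305816, plus strand): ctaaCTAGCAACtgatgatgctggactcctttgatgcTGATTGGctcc
H2-DMb1 (chr17:34153090-34153138, plus strand): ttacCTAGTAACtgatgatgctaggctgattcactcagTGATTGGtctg
H2-DMb2 (chr17:34145119-34145167, plus strand): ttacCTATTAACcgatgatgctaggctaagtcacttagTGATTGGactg
H2-Oa (chr17:34092296-34092344, plus strand): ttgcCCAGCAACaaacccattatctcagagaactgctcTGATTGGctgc
H2-Ob (chr17:34238811-34238856, plus strand): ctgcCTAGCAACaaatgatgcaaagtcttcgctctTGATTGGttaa
The gap between the motifs was 26 bases in H2-Aa, H2-DMb1, H2-DMb2 and H2-Oa, 25 in H2-Eb1 and 23 in H2-Ob. A match describes letters and is not a measured binding site, and no match in the H2-DMa windows says only that the letters are not in those windows.

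The 10 genes fell into abundant and scarce members in the same way in each library. Together they took 0.233% of recovered reads in the irradiated cKO library (Clopper-Pearson 95% interval 0.231% to 0.235%) and 0.121% (0.120% to 0.123%) in the irradiated wild-type library. At steady state the shares were 0.167% (0.165% to 0.169%) in the cKO library and 0.248% (0.246% to 0.250%) in the wild-type library. The share was thus highest in the steady-state wild-type library and lowest in the irradiated wild-type library, with both cKO libraries between.

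Cd74 on chromosome 18 (60803849 to 60812652), the invariant chain, was the most abundant of the 10 in all 4 libraries. It had 776 FPKM in the irradiated cKO library, 457 FPKM in the irradiated wild-type library, 601 FPKM in the steady-state cKO library and 1157 FPKM in the steady-state wild-type library. It ranked 39 among all genes in the last of these and 234 in the irradiated wild-type library. Its recovered reads, 12827, 7139, 10697 and 21242 in the same order, make counting error small for this gene.

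The classical chains came next. H2-Ab1, the beta chain of I-A, had 465 and 327 FPKM in the irradiated cKO and wild-type libraries and 206 and 345 FPKM in the steady-state cKO and wild-type libraries. H2-Aa, the alpha chain of I-A, had 169 (cKO) and 115 FPKM (wild type) after irradiation and 128 (cKO) and 218 FPKM (wild type) at steady state. H2-Eb1, the beta chain of I-E, had 191 (cKO) and 122 FPKM (wild type) after irradiation and 96.6 (cKO) and 175 FPKM (wild type) at steady state. For all 3 chains the cKO library was the higher one after irradiation and the lower one at steady state. In C57BL/6 mice the I-E alpha gene is defective, so the H2-Eb1 product has no alpha partner. Its locus, H2-Ea-ps, had 24 reads in the irradiated cKO library and 4 or fewer in each of the others, with 0 in the steady-state wild-type library, where 3 reads would have given 0.168 FPKM.

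As deposited, DM transcripts were lower in the irradiated libraries than at steady state for 2 of the 3 genes. H2-DMa, the alpha chain, had 48.0 FPKM (cKO) and 43.7 FPKM (wild type) after irradiation, against 125 (cKO) and 144 FPKM (wild type) at steady state. H2-DMb1, a beta chain, had 39.7 (cKO) and 30.9 FPKM (wild type) after irradiation against 63.9 (cKO) and 77.6 FPKM (wild type) at steady state. H2-DMb2, a second and near-identical beta chain gene beside it, stayed low, with 6.91 (cKO) and 4.30 FPKM (wild type) after irradiation against 3.36 (cKO) and 4.52 FPKM (wild type) at steady state. How shared reads were assigned is not stated in the labels or file headers, so the split between H2-DMb1 and H2-DMb2 is uncertain. H2-DMa overlaps its neighbour Brd2 in the annotation, and whether strand was used in counting is not stated either.

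The DO chains and Ciita were scarce. H2-Oa, the DO alpha chain, had 3.93 and 2.61 FPKM in the irradiated cKO and wild-type libraries and 8.59 and 8.80 FPKM in the steady-state ones. H2-Ob, the DO beta chain, had 2.41 (cKO) and 1.63 FPKM (wild type) after irradiation and 9.02 (cKO) and 5.45 FPKM (wild type) at steady state, so the steady-state cKO library stood above the other 3. Ciita on chromosome 16 (10480014 to 10531064), the class II transactivator, never reached 1 FPKM. After irradiation it had 0.885 FPKM (0.726 to 1.07) in the cKO and 0.516 FPKM (0.393 to 0.664) in the wild type, and at steady state 0.649 FPKM (0.519 to 0.801) in the cKO and 0.980 FPKM (0.821 to 1.16) in the wild type. It had 60 to 134 reads per library, and in the order of its levels each library's interval overlapped that of the next. A background measure stands beside these low values: of 310 olfactory receptor genes, which blood cells barely transcribe, 74.5% had a read in the irradiated cKO library, 50% in the irradiated wild-type library, 32.9% in the steady-state cKO library and 17.4% in the steady-state wild-type library. The part of this background in the low members was not tested.

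**Figure D1:**
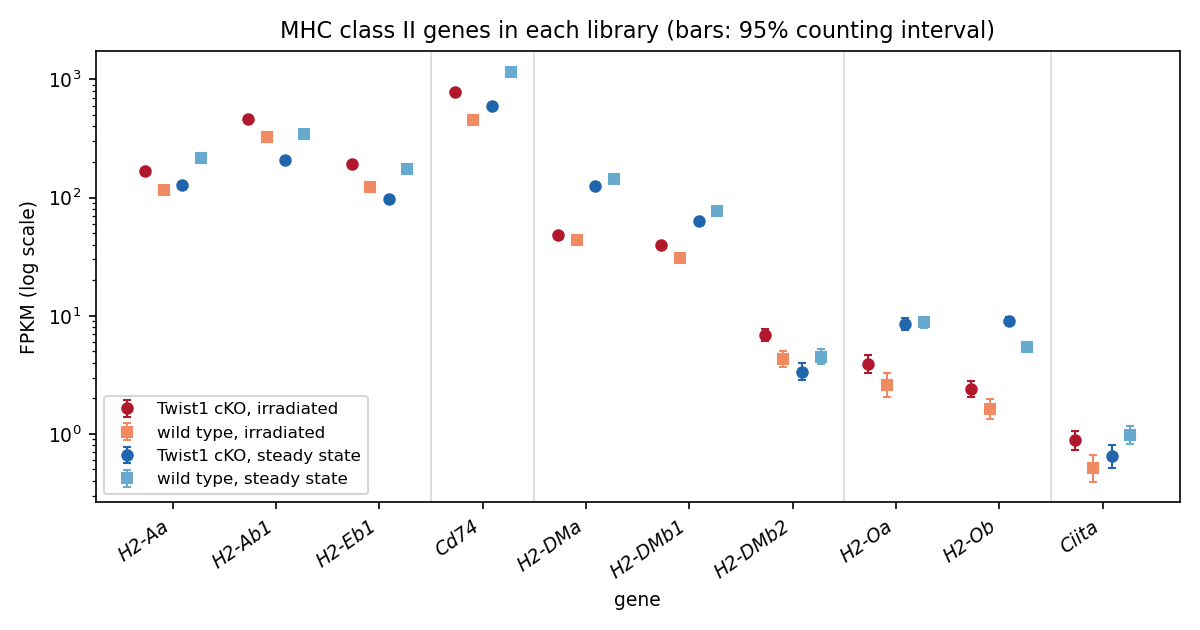
FPKM (log scale) of the 10 MHC class II genes in each of the 4 libraries, with 95% counting intervals, grouped by role from left to right (classical chains, invariant chain, DM, DO, Ciita). Cd74 lies between 457 and 1157 FPKM and Ciita below 1 FPKM in every library, and DM and DO genes other than H2-DMb2 are lowest in the irradiated libraries as deposited; in the cKO, H2-DMb1 turns with upper quartile scaling.

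At steady state the libraries differ by Twist1 genotype. The invariant chain and the classical chains were lower in the cKO library by like amounts: Cd74 was 0.519-fold the wild-type level (0.507 to 0.532), H2-Eb1 0.551-fold (0.526 to 0.576), H2-Aa 0.588-fold (0.570 to 0.607) and H2-Ab1 0.598-fold (0.582 to 0.614). The DM genes were nearer to the wild-type level, with H2-DMa at 0.867-fold (0.836 to 0.900), H2-DMb1 at 0.824-fold (0.780 to 0.869) and H2-DMb2 at 0.744-fold (0.597 to 0.926). The DO chains went apart from all of these: H2-Ob was 1.66-fold the wild-type level (1.47 to 1.87), while H2-Oa was at 0.977-fold with an interval of 0.828 to 1.15, and its log2 difference of −0.03 changed sign with scaling (up to 0.09). Ciita was at 0.662-fold (0.499 to 0.874).

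Of the 10 members, 8 reached 5 FPKM in the higher library (H2-DMb2 and Ciita did not), and their median log2 difference was −0.51, beside 0.01 over all 7157 genes that did. None of the 8 was 2-fold higher (0.643% of all genes compared were) and none 2-fold lower (2.7% were). Cd74 came nearest at −0.94. No library was replicated, so these are distances between 2 libraries.

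After irradiation the genotype difference ran the other way for the members that had been lower in the cKO, and H2-Ob was again higher. Cd74 was 1.70-fold the wild-type level in the cKO library (1.65 to 1.75), H2-Eb1 1.56-fold (1.49 to 1.63), H2-Aa 1.47-fold (1.42 to 1.53) and H2-Ab1 1.42-fold (1.39 to 1.45). H2-DMa was the nearest to equal at 1.10-fold (1.03 to 1.18), followed by H2-DMb1 at 1.28-fold (1.18 to 1.39), and H2-DMb2 was at 1.60-fold (1.32 to 1.96). H2-Oa (log2 difference 0.45) had a ratio interval of 1.12 to 2.03, H2-Ob was at 1.47-fold (1.16 to 1.88) and Ciita at 1.72-fold (1.24 to 2.39).

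All 10 members therefore had a higher FPKM in the irradiated cKO library, under each of the scalings tried. This stands against a median of −0.45 over all 6348 genes compared, which other settings moved to between −0.48 and 0.07. The 7 members at 5 FPKM or more had a median of 0.55, and H2-DMb2 was among them through the cKO library alone. None was 2-fold higher (4.47% of all genes compared were) or 2-fold lower (1.04% were). With upper quartile scaling 5 of 8 were 2-fold higher, where 10.2% of all genes were.

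**Figure D2:**
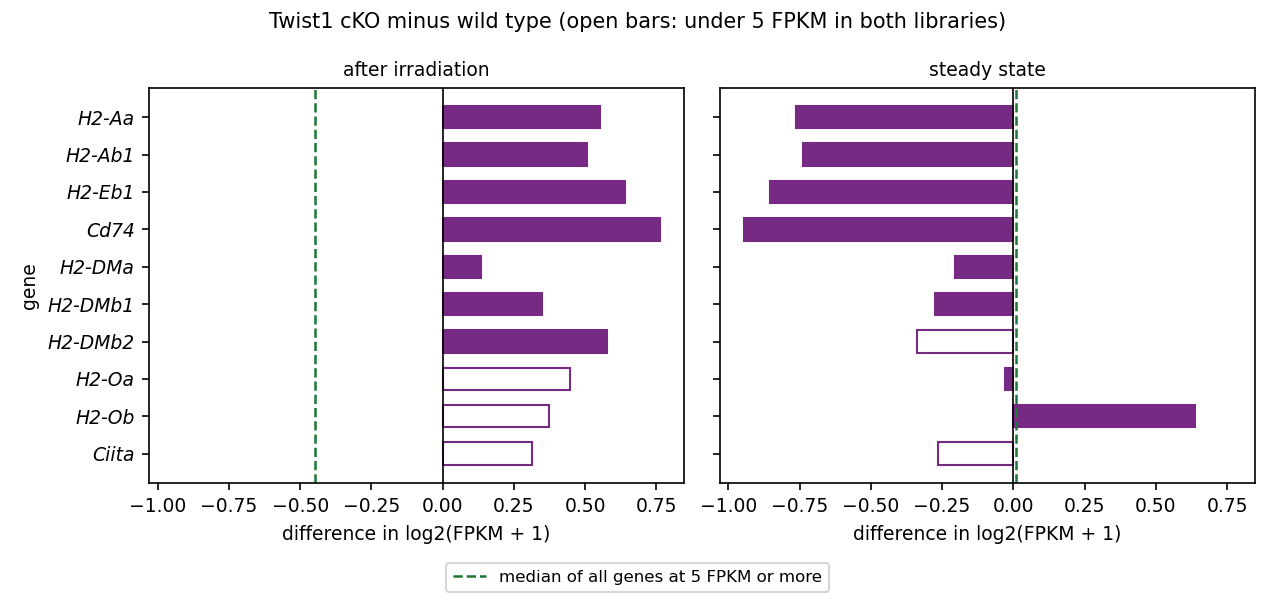
Difference in log2(FPKM + 1), Twist1 cKO minus wild type, for each gene after irradiation (left) and at steady state (right); open bars mark genes under 5 FPKM in both libraries and the dashed line is the median of all genes at 5 FPKM or more (−0.45 and 0.01). All 10 bars point to higher cKO values after irradiation, and at steady state H2-Ob does so alone, apart from H2-Oa (−0.03), whose sign turns with scaling.

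Set side by side, the genotype differences of the classical chains and Cd74 were the furthest apart on the log2(FPKM + 1) scale. The difference of differences (irradiated less steady state) was 1.71 for Cd74, 1.49 for H2-Eb1, 1.31 for H2-Aa and 1.24 for H2-Ab1 on the log2 scale. It was 0.62 for H2-DMb1, 0.92 for H2-DMb2, 0.34 for H2-DMa, 0.48 for H2-Oa and 0.58 for Ciita. The pseudocount bears on this order, since Ciita is low and reached 1.21 with a pseudocount of 0.1. H2-Ob had −0.26, a value whose sign turned with scaling (up to 0.08). The median over the 9 members at 5 FPKM or more in any library was 0.92, beside −0.40 over 7772 genes, and 4 libraries leave no residual spread to test it. In 8 of the 10 members the ratio was below 1 at steady state and above 1 after irradiation with both counting intervals away from 1, and in none the reverse. Of all 29928 genes with a read, 2.54% did so and 6.73% did the reverse. Among the 7772 genes it was 5.39% and 21.3%, beside 7 and 0 of the 9 members. These shares and counts are from the deposited scaling alone. Other settings moved the median genotype difference of all genes after irradiation to between −0.48 and 0.07, and the shares were not read again under them.

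Irradiated and steady-state cells were then compared within the cKO, and here the deposited values of the 10 genes lay on both sides of the steady-state level. H2-Ab1 was 2.26-fold the steady-state level (2.20 to 2.31) and H2-Eb1 1.98-fold (1.89 to 2.07), whereas H2-Aa was at 1.32-fold (1.28 to 1.37) and Cd74 at 1.29-fold (1.26 to 1.32). H2-Ob was lower at 0.267-fold (0.225 to 0.315), H2-DMa at 0.383-fold (0.363 to 0.404), H2-Oa at 0.457-fold (0.366 to 0.567) and H2-DMb1 at 0.620-fold (0.580 to 0.663), the last turning positive with upper quartile scaling (log2 0.32). H2-DMb2 was at 2.06-fold (1.68 to 2.53), the only DM gene above its steady-state level in the deposited values (0.86 on the log2(FPKM + 1) scale, which understates low genes), and Ciita at 1.36-fold (1.02 to 1.83).

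Of 9 members compared (Ciita was under 5 FPKM), H2-Ab1 was 2-fold higher, beside 10.3% of all 7393 genes, and H2-DMa and H2-Ob were 2-fold lower, beside 22.6%. Both counts are near the shares of all genes. H2-Oa and H2-Ob reached 5 FPKM through the steady-state library alone, and H2-DMb2 through the irradiated library alone. The counts of 1 higher and 2 lower became 5 and 0 with upper quartile scaling, where 44.0% of all genes were 2-fold higher and 8.38% 2-fold lower. The member median was 0.37, and summing H2-DMb1 and H2-DMb2 into 1 member turned it to −0.077. The median over all genes was −0.20.

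Within the wild type the deposited values put each member below its steady-state level, with 3 that changed sign under another scaling. H2-Oa had 0.297-fold (0.228 to 0.383), H2-Ob 0.300-fold (0.242 to 0.369), H2-DMa 0.302-fold (0.286 to 0.320) and H2-DMb1 0.398-fold (0.371 to 0.428) the steady-state value. Cd74 was as low at 0.395-fold (0.385 to 0.406), H2-Aa was at 0.528-fold (0.510 to 0.546) and Ciita at 0.526-fold (0.382 to 0.719). H2-Eb1 was at 0.698-fold (0.668 to 0.729), H2-DMb2 at 0.953-fold (0.771 to 1.18) and H2-Ab1 at 0.949-fold (0.926 to 0.972). With upper quartile scaling the log2 differences of these 3 were 0.08, 0.42 and 0.52, and with median-of-ratios scaling H2-Ab1 (0.08) and H2-DMb2 (0.07) were positive too.

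Among 8 members compared, 5 were 2-fold lower (Cd74, H2-DMa, H2-DMb1, H2-Oa and H2-Ob), beside 18.9% of all 7418 genes, and none was 2-fold higher, beside 18.9%. H2-Oa and H2-Ob reached 5 FPKM through the steady-state library alone, so their count as lower follows in part from that minimum. Their median was −1.30, against 0.21 over all genes. With upper quartile scaling 1 of 7 was 2-fold lower, where 11.4% of all genes were. Each library enters 1 genotype and 1 irradiation comparison, so these share libraries.

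**Figure D3:**
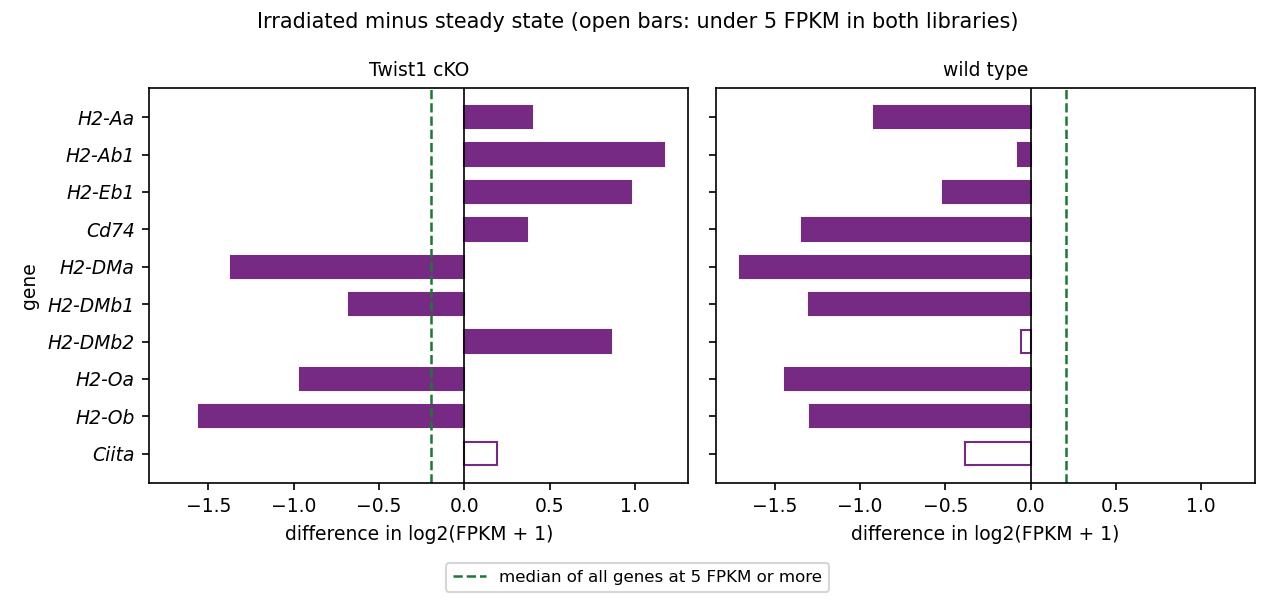
Difference in log2(FPKM + 1), irradiated minus steady state, for each gene in Twist1 cKO (left) and wild type (right); open bars mark genes under 5 FPKM in both libraries and the dashed line is the median of all genes at 5 FPKM or more (−0.20 and 0.21). In the cKO the classical chains, Cd74 and H2-DMb2 lie right of 0 and H2-DMa, H2-DMb1 and both DO chains left of it, while in the wild type no bar lies right of 0, where H2-Ab1, H2-Eb1 and H2-DMb2 turn positive with upper quartile scaling.

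Ratios between members within a library need no scaling between libraries. H2-Ab1 over H2-Aa, the beta and alpha chains of the same I-A molecule, was 2.74 (2.67 to 2.82) in the irradiated cKO library and 2.84 (2.75 to 2.94) in the irradiated wild-type library. At steady state it was 1.61 (1.55 to 1.66) in the cKO library and 1.58 (1.54 to 1.62) in the wild-type library. This ratio divided the libraries by irradiation, and within each condition the intervals of the genotypes overlapped.

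Cd74 over H2-Ab1, invariant chain over class II beta chain, was lower after irradiation. It was 1.67 (1.63 to 1.71) in the cKO and 1.40 (1.36 to 1.44) in the wild-type library after irradiation, and 2.91 in the cKO and 3.35 (3.28 to 3.43) in the wild-type library at steady state. The genotypes also stood apart, the cKO above the wild type after irradiation and below it at steady state.

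The loading factor was scarcer relative to its substrate after irradiation. H2-DMa over H2-Aa was 0.283 (0.269 to 0.298) in the irradiated cKO library and 0.379 (0.358 to 0.401) in the irradiated wild-type library, against 0.975 (0.940 to 1.01) in the steady-state cKO library and 0.661 (0.641 to 0.682) in the steady-state wild-type library. The alpha chains of DM and of its inhibitor, H2-DMa over H2-Oa, gave 12.2 (10.2 to 14.8) in the cKO and 16.7 (13.3 to 21.3) in the wild type after irradiation, and 14.6 (12.9 to 16.5) in the cKO and 16.4 (14.6 to 18.5) in the wild type at steady state. All 4 of these intervals overlap. The beta chains did not keep such a ratio: H2-DMb1 and H2-DMb2 summed over H2-Ob was 19.3 in the cKO and 21.6 in the wild type after irradiation, and 7.46 in the cKO and 15.1 in the wild type at steady state. H2-Oa over H2-Ob was 1.63 (1.28 to 2.07) in the cKO and 1.60 (1.18 to 2.16) in the wild type after irradiation, and 0.952 (0.827 to 1.09) in the steady-state cKO library against 1.62 (1.39 to 1.87) in the steady-state wild-type library.

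On chromosome 17, 8 of the 10 genes lie within 252 kb (34092379 to 34344645), which holds 14 measured genes. The 4 class I genes of the interval lie between the DM genes and H2-Ob: Psmb8 and Psmb9 encode immunoproteasome subunits, and Tap1 and Tap2 the peptide transporter. In the cKO their irradiated minus steady-state differences were −0.93, −0.83, −1.18 and −1.17, near those of the flanking H2-DMb1 (−0.68) and H2-Ob (−1.56), and Psmb8 and Psmb9 turned positive with upper quartile scaling (0.06 and 0.16). Between genotypes after irradiation they had −0.14, −0.10, −0.20 and −0.12, above the median of all genes, where the 8 members of the interval had 0.13 to 0.64 and the scarce H2-Eb2, a further class II beta chain gene, had 0.74. The sign of all 4 turned with scaling (up to 0.38, 0.42, 0.29 and 0.37).

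**Figure D4:**
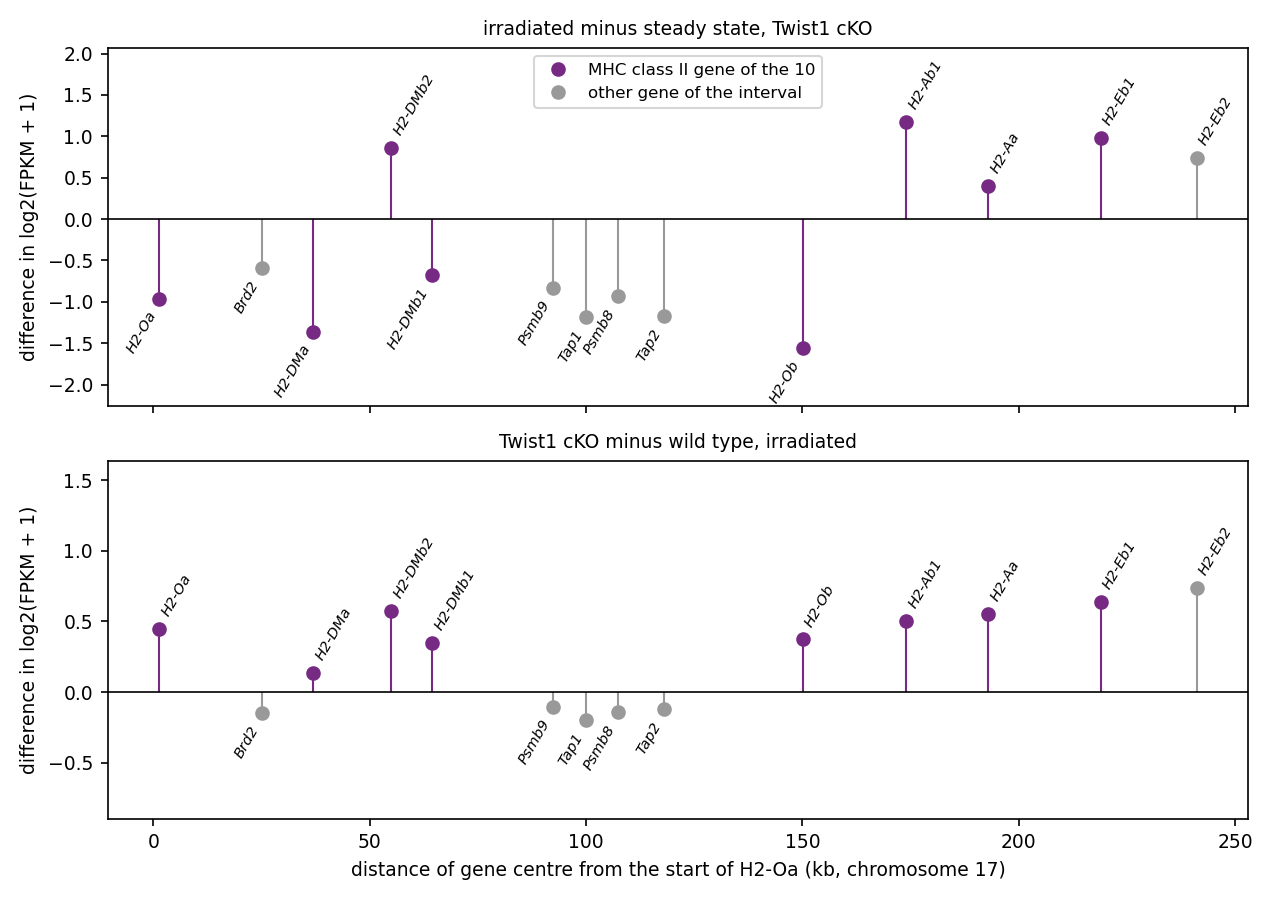
Difference in log2(FPKM + 1) for the 14 measured genes of the interval on chromosome 17 against the distance of each gene's centre from the start of H2-Oa (kb); the upper panel gives irradiated minus steady state in the Twist1 cKO and the lower panel Twist1 cKO minus wild type after irradiation. In the upper panel H2-Ab1, H2-Aa, H2-Eb1 and the scarce H2-Eb2 (0.74, under 1 FPKM) stand together above 0 at the right, and in the lower panel the 8 members (0.13 to 0.64) and H2-Eb2 (0.74) lie above the 4 class I genes.

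Other genes of the pathway were taken from lists chosen with earlier results of these data known. In the deposited values the 8 endosomal processing genes took the same directions as the classical chains between genotypes, Ctsl and Ifi30 not clearly so. At steady state their median genotype difference was −0.81, and 3 of 8 were 2-fold lower in the cKO (Ctss −1.07, Lgmn −1.05, Ctsb −1.04), beside 2.7% of all genes. Ctss encodes cathepsin S, which trims the invariant chain, and Lgmn encodes asparaginyl endopeptidase. After irradiation the median was 0.72, all 8 were positive and none was 2-fold higher (4.47% of all genes were). The ratio intervals of Ctsl held 1 at steady state (0.960-fold, 0.882 to 1.05) and after irradiation (1.11-fold, 0.990 to 1.25). That of Ifi30 did so after irradiation (1.004-fold, 0.932 to 1.08). Ctss had 243 FPKM in the irradiated cKO library, 144 FPKM in the irradiated wild-type library, 173 FPKM in the steady-state cKO library and 365 FPKM in the steady-state wild-type library. Irradiated minus steady state, 5 of 8 were 2-fold higher in the cKO (10.3% of all genes were), led by Ifi30, the thiol reductase of endosomes (2.49). In the wild type 1 was 2-fold higher (Ifi30, 1.73) and 2 were 2-fold lower (Ctss −1.34 and Ctsh −1.24), beside 18.9% of all genes in each direction.

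Regulators differed among themselves. Of 14 regulators of the promoter element and of Ciita, 6 reached 5 FPKM in each comparison, and the list median changed sign with the setting in all 4. Irf8, a regulator of macrophage and dendritic cell genes, had 11.7 (cKO) and 6.67 FPKM (wild type) after irradiation and 3.45 (cKO) and 6.82 FPKM (wild type) at steady state, so its genotype difference was 0.72 after irradiation and −0.81 at steady state. Irf1, an interferon-induced activator of the Ciita gene, had 6.08 (cKO) and 7.05 FPKM (wild type) after irradiation against 41.4 (cKO) and 40.2 FPKM (wild type) at steady state. Spi1, which encodes PU.1, had 22.1 (cKO) and 15.8 FPKM (wild type) after irradiation against 59.97 (cKO) and 55.6 FPKM (wild type) at steady state. Rfx5, the DNA-binding RFX subunit, stayed between 0.434 and 1.36 FPKM. Of 8 genes of interferon-gamma signalling, 6 were compared at steady state and 5 after irradiation, and none was 2-fold apart between genotypes. Of all genes, 0.643% were 2-fold higher and 2.7% lower at steady state, and 4.47% higher and 1.04% lower after irradiation. In a list this short, finding none says little.

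The class I presentation list had 12 of 13 genes at 5 FPKM. Its median was −0.05 between genotypes at steady state and −0.13 after irradiation, signs that turned with scaling. Irradiated minus steady state it was −0.88 in the cKO, with 5 of 12 genes 2-fold lower (22.6% of all genes were), and −0.89 in the wild type, with 4 of 12 (18.9% were); the cKO median reached 0.11 with upper quartile scaling. B2m, the light chain of class I, had 2940 (cKO) and 2967 FPKM (wild type) after irradiation against 6171 (cKO) and 8270 FPKM (wild type) at steady state. Of the costimulatory genes, Cd86 had 13.3 (cKO) and 7.24 FPKM (wild type) after irradiation and 5.68 (cKO) and 10.4 FPKM (wild type) at steady state, the same order of libraries as H2-Ab1 and H2-Eb1.

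Markers of other bone marrow cells were read beside these results. Of 13 macrophage markers, 11 were compared at steady state and 9 were 2-fold lower in the cKO (2.7% of all genes were). Of 12 compared after irradiation, 4 were 2-fold higher (4.47% were). Their summed level was 1710 FPKM in the irradiated cKO library, 940 FPKM in the irradiated wild-type library, 519 FPKM in the steady-state cKO library and 1654 FPKM in the steady-state wild-type library, and none was at 0. The 13 B cell markers summed to 99.3 (cKO) and 48.1 FPKM (wild type) after irradiation and 144 (cKO) and 209 FPKM (wild type) at steady state; only Pax5 was at 0, in the irradiated wild-type library, and it was below 0.07 FPKM in the others. The 12 dendritic cell markers summed to 215 (cKO) and 222 FPKM (wild type) after irradiation against 145 (cKO) and 182 FPKM (wild type) at steady state, mostly Bst2 (126 to 207 FPKM), with none at 0 and Siglech, a plasmacytoid marker, at 0.0882 to 0.117 FPKM. The 8 plasma cell markers summed to 4534 (cKO) and 1554 FPKM (wild type) after irradiation and 3119 (cKO) and 5633 FPKM (wild type) at steady state, mostly Jchain (1423 to 5063 FPKM), and none was at 0. The order of this sum was that of Cd74, but only 2 of the 6 markers compared in the cKO were, like Cd74, higher after irradiation. Immunoglobulin genes took 10.1% of reads in the irradiated cKO library, 3.03% in the irradiated wild-type library, 10.7% in the steady-state cKO library and 16.1% in the steady-state wild-type library. The 7 monocyte markers summed to 1111 (cKO) and 516 FPKM (wild type) after irradiation against 1055 (cKO) and 1379 FPKM (wild type) at steady state, mostly Lyz2 (485 to 1052 FPKM). The 8 T and NK cell markers summed to 138 (cKO) and 84.9 FPKM (wild type) after irradiation against 363 (cKO) and 368 FPKM (wild type) at steady state, mostly Nkg7 (75.6 to 325 FPKM). None of either list was at 0. Of 4 T and NK cell markers compared in the cKO, Cd3g (log2 difference 1.52) and Trbc2 (0.72) were higher after irradiation, and Nkg7 (−1.72) and Trbc1 (−1.50) lower. The 5 endothelial markers summed to 1.73 (cKO) and 1.004 FPKM (wild type) after irradiation against 15.4 (cKO) and 12.7 FPKM (wild type) at steady state, and Cdh5 was at 0 in the irradiated wild-type library. The part of these cells in the class II results was not tested.

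Set against single markers, H2-Ab1 over Cd79a, a B cell receptor subunit, was 8.13 (cKO) and 12.9 (wild type) after irradiation and 3.49 (cKO) and 3.76 (wild type) at steady state. H2-Ab1 over C1qa, a macrophage product, was 2.15 (cKO) and 2.75 (wild type) after irradiation, 3.55 in the steady-state cKO library and 1.66 in the steady-state wild-type library. Cd74 over Cd79a ranged less widely, with 13.6 (cKO) and 18.04 (wild type) after irradiation and 10.2 (cKO) and 12.6 (wild type) at steady state.

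**Figure D5:**
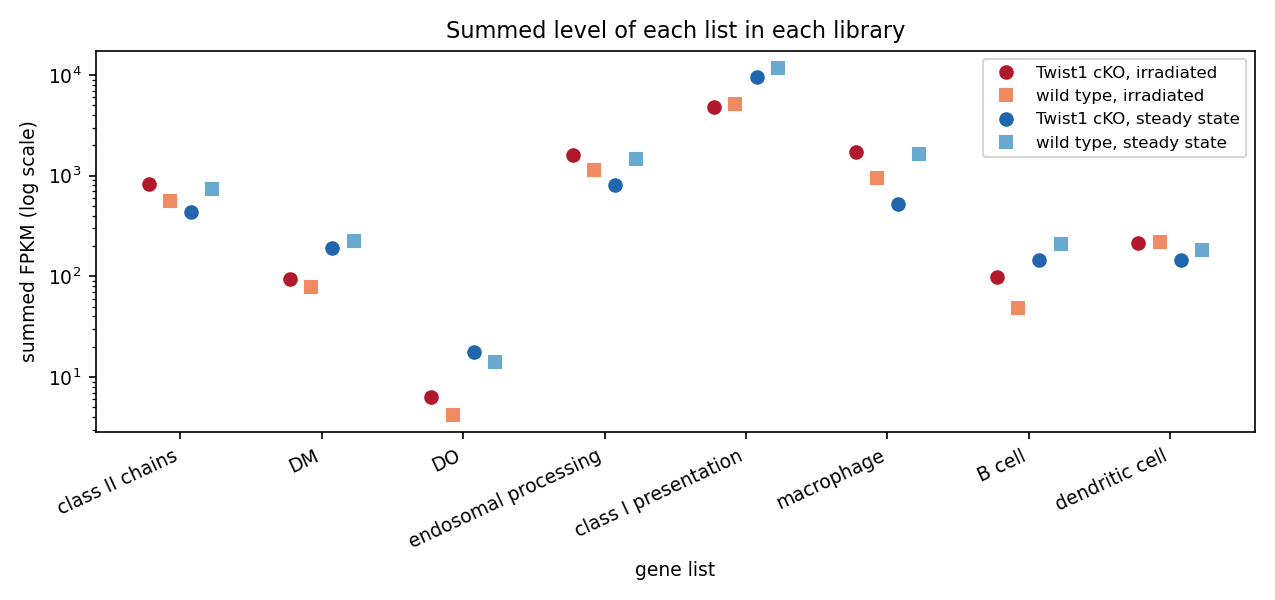
Summed FPKM (log scale) of gene lists in each of the 4 libraries. The macrophage, B cell, endosomal processing and DM lists share with the class II chains a higher cKO point after irradiation and a higher wild-type point at steady state. The DM, DO, class I and B cell lists are lower in both irradiated libraries as deposited.

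By shape over the 4 libraries, the 6 genes nearest to the mean of H2-Aa, H2-Ab1, H2-Eb1 and Cd74 were Cd163, Pilrb2, P2ry13, Rgl1, Nucb2 and Fcgrt, with root mean square differences of 0.0785 to 0.0993 in centred log2(FPKM + 1). This describes 4 points among 6800 genes compared, which reached 5 FPKM in any library and were not members. MicroRNA, small nucleolar and ribosomal RNA, Gm-numbered, RIKEN and pseudogene symbols were left out beforehand. So were identifiers without a symbol and immunoglobulin and T cell receptor segments and constant regions. Cd163, the haemoglobin-haptoglobin scavenger receptor, had 6.63 (cKO) and 3.81 FPKM (wild type) after irradiation and 4.07 (cKO) and 6.84 FPKM (wild type) at steady state. Fcgrt, the neonatal Fc receptor, had 83.9 (cKO) and 48.9 FPKM (wild type) after irradiation against 51.8 (cKO) and 97.6 FPKM (wild type) at steady state. On the same measure H2-Eb1 lay at 0.112, H2-Aa at 0.138, Ciita at 0.231, Cd74 at 0.256, H2-DMb2 at 0.261 and H2-Ab1 at 0.274. Between 10 (H2-Eb1) and 76 (H2-Ab1) of the 6800 genes were nearer than these. H2-Aa, H2-Ab1, H2-Eb1 and Cd74 define the mean, so their own nearness to it is in part built in. H2-DMb1 (0.543), H2-Oa (0.669), H2-DMa (0.820) and H2-Ob (0.887) were the farthest of the 10, with between 2567 and 5823 of the 6800 genes nearer than they were.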

How the data were processed

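The authors deposited FPKM, 1 value per gene and library, per the file headers, in 4 files of 30409 Ensembl identifiers. Tools named in the submitters' processing notes are BWA 0.7.12-r1039, Bowtie, HOMER and MACS2 2.1.0, with build mm10; none is tied there to the FPKM, and the counting of shared reads is not stated. Symbols matched 30231 identifiers; of 2 sharing a symbol, the higher mean was kept.

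Reads were recovered as the smallest whole gene length giving whole reads in all 4 libraries, given library sizes of 23450734 and 22146433 (irradiated cKO and wild type) and 25239648 and 26031985 (steady-state cKO and wild type). These sizes were first set from the annotated lengths of 13 mitochondrial genes. The recovered lengths equalled those annotated for 12 of these 13, which is therefore no independent check. A recovered read number may be too low by a whole factor, and its interval is then too wide. Tested on simulated data, 96.4% of 17257 genes with 30 or more reads and 96.2% of 11764 with fewer were exact. The simulation took the recovered lengths and library sizes as true. It therefore cannot show how many real genes have a read number too low by a whole factor.

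Differences are log2(FPKM + 1). Genes reaching 5 FPKM in either library of a comparison were compared, and those 2-fold apart on that scale were counted. Intervals are Clopper-Pearson for levels and conditional exact binomial for ratios; the floor is 3 reads. The members and all lists were chosen with earlier results of these data known. All 10 members are named; other genes are the up to 4 largest differences of a list and the 6 nearest in shape, and any beyond these were chosen after their values were seen. Alternatives were pseudocounts of 0.1 and 5, minimum levels of 1 FPKM and none, 5 other scalings, and H2-DMb1 and H2-DMb2 summed. Python 3.11.15, numpy 2.4.6, scipy 1.17.1 and pandas 2.3.3 were used.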

Additional observations from a re-analysis of the deposited data

Results flagged for a closer look

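In 8 of the 10 genes the genotype difference had opposite signs in the 2 conditions, with both counting intervals away from a ratio of 1, and all 8 were lower in the cKO at steady state and higher after irradiation. Of all genes with a read, 2.54% met this rule in that direction at the deposited scaling, the only one at which the rule was read. The intervals cover counting error only. The difference between the conditions was not tested, since each group holds 1 library. The difference of differences (cKO minus wild type after irradiation, less the same at steady state, log2 scale) was 1.71 for Cd74, 1.49 for H2-Eb1, 1.31 for H2-Aa and 1.24 for H2-Ab1. It was 0.92 for H2-DMb2, 0.62 for H2-DMb1, 0.58 for Ciita and 0.34 for H2-DMa. H2-Oa had a steady-state interval that held 1, and H2-Ob was higher in the cKO in both conditions.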

How the results depend on the processing

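No paired analysis was possible because each group holds 1 library. Under 10 alternatives, 88 of 130 medians and counts moved little, 41 moved and 1 reversed; of 495 values of single members, 350 moved little and 145 moved, and the 6 named in the report that changed sign were under 2-fold apart. The median steady-state genotype difference (−0.51) was −0.34 with a minimum of 1 FPKM, −0.31 with none, −0.39 with upper quartile scaling, −0.37 with recovered read totals, −0.31 without immunoglobulin genes and −0.32 without the 50 most abundant genes. The median after irradiation (0.55) was 0.48 with no minimum, 0.66 with median of ratios, 1.05 with upper quartile, 0.88 with read totals, 0.98 without immunoglobulin genes and 0.98 without the 50 most abundant genes. Its count of 2-fold higher members (0) was 5, 2, 3 and 3 under the last 4 of these, where 10.2%, 7.66%, 7.44% and 8.84% of all genes were.

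In the cKO, the median of irradiated minus steady state (0.37) was 0.28 with no minimum, 0.62 with median of ratios, 1.38 with upper quartile and −0.077 with H2-DMb1 and H2-DMb2 summed; the cause of that reversal was not tested. Its count of 2-fold higher members (1) was 2 with a pseudocount of 0.1, 3 with median of ratios, 5 with upper quartile and 2 without the 50 most abundant genes, where 11.1%, 16.3%, 44.0% and 11.3% of all genes were. Its count of lower members (2) was 1 with a pseudocount of 5 and 0 with upper quartile, beside 13% and 8.38% of all genes. In the wild type, the median (−1.30) was −0.88 with a pseudocount of 5, −1.10 with no minimum, −1.16 with median of ratios, −0.71 with upper quartile, −1.47 with read totals, −1.62 without immunoglobulin genes and −1.63 without the 50 most abundant genes. Its count of lower members (5) was 3 with a pseudocount of 5 and 1 with upper quartile, beside 12.8% and 11.4%. The median difference of differences (0.92) was 1.09 and 0.58 with pseudocounts of 0.1 and 5, 0.77 with no minimum, 1.29 with upper quartile, 1.12 with read totals, 1.30 without immunoglobulin genes and 1.31 without the 50 most abundant genes. Relative to the median of all genes, the member medians kept their sign under every alternative: −0.52 to −0.31 and 0.48 to 1.04 for genotype at steady state and after irradiation, and 0.12 to 0.61 and −1.56 to −1.03 for irradiation in the cKO and the wild type. Depth limits Ciita, H2-DMb2 and the DO chains; for the abundant members the lack of replicates is the limit.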

Other observations

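H2-Eb2, a class II beta chain gene beside H2-Eb1, had 38 reads in the irradiated cKO library, 2 in the irradiated wild-type library, 2 in the steady-state cKO library and 10 in the steady-state wild-type library. The irradiated cKO library stood 17.9-fold above the irradiated wild-type library (4.64 to 154). H2-Ea-ps was also highest there, at 1.49 FPKM against 0.263 FPKM in the irradiated wild-type library (5.67-fold, 1.95 to 22.5). In the same library 74.5% of 310 olfactory receptor genes had a read, against 50% in the irradiated wild-type library, and the part of that background in these low values was not tested. Xcr1, a receptor of cross-presenting dendritic cells, had 3.89 (cKO) and 2.26 FPKM (wild type) after irradiation against 0.472 (cKO) and 0.457 FPKM (wild type) at steady state. The rest of the dendritic cell list was divided in the deposited values. Zbtb46, Clec9a, Batf3, Clec10a, Ccr7 and Bst2 were also higher after irradiation in both genotypes. Flt3, Tcf4, Cd209a and Siglech were lower in both, and Itgax was higher in the cKO and lower in the wild type.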
